A study of Mus musculus with 18 samples.

Results

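Fc receptors and the kinases next to them were followed through 17 brain RNAseq libraries from Cx3cr1-NuTRAP mice given lipopolysaccharide (LPS) or saline. The set held 8 genes of the 36172 in the deposited table, chosen by gene symbol. They were the mouse Fc gamma receptors (Fcgr1, Fcgr2b, Fcgr3 and Fcgr4), the signalling chain shared by the activating ones (Fcer1g) and 3 kinases (Lyn, Syk and Btk). All 8 had a row of their own and all 8 passed the filter on low counts.

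Fc gamma receptors bind the constant part of IgG and so couple antibody to the cells of innate immunity. Fcgr1, Fcgr3 and Fcgr4 are activating receptors that sit at the membrane with the Fcer1g chain, whose immunoreceptor tyrosine-based activation motif (ITAM) is phosphorylated by Src family kinases such as Lyn and then recruits Syk, with Btk acting downstream. Fcgr2b is the inhibitory receptor, carries an immunoreceptor tyrosine-based inhibition motif (ITIM) in its own tail and opposes the activating signal. In the brain these receptors are known mainly from microglia and from the macrophages of its borders, and they serve phagocytosis of opsonised material.

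The mice carried Cx3cr1-cre/ERT2+; NuTRAP+, that is, a tamoxifen-inducible Cre driven by Cx3cr1 on 1 allele and a floxed reporter that, once recombined, puts EGFP on a ribosomal protein. Microglia and border macrophages both express Cx3cr1, so both could carry the tag. All animals, about 3 months of age by the methods, received tamoxifen, then 3 to 4 weeks later 1 intraperitoneal injection of LPS at 5 mg/kg or of its vehicle, phosphate-buffered saline (PBS), and brain was taken 24 h after that. From each animal a part of the cleared homogenate was kept as input and the tagged ribosomes were pulled down with anti-GFP to give the positive fraction by translating ribosome affinity purification (TRAP). The positive fraction gave 4 PBS and 5 LPS libraries and input gave 4 of each, named here by fraction, treatment and animal, with 1 library per animal and fraction, and no Cre-negative animals were analysed here. Levels are normalised counts, meaning deposited counts per gene divided by the size factor of the library. The LPS animals were numbers 266, 267, 270, 271 and 507, and the PBS animals were 268, 272, 273 and 506. Of the LPS animals only 267 was male, and of the PBS animals 272 and 273 were male. Sex was therefore not balanced between treatments, and the female PBS animals were 268 and 506 alone.

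The 17 libraries held between 22968939 and 35123345 counts. The input library of animal 271 held 1252 and was left out. All 7 microglia markers used (Cx3cr1, P2ry12, Tmem119, Csf1r, Aif1, Itgam and C1qa) were higher in the positive fraction, with log2 differences from 4.09 to 4.43 in PBS animals and from 3.67 to 4.37 in LPS animals. Animal 270 stood apart in the genes described here. It had the lowest level of 6 of the 8 genes among the Positive LPS libraries and of 7 of the 8 among the Input LPS libraries, while its Fcgr3 level was the highest in both fractions. Calls that differ without that animal are given beside the gene.

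The genes for the low-affinity receptors and the shared chain lay close together. Fcgr2b (chr1:170960559-170976071, minus strand), Fcgr4 (chr1:171018926-171029761, plus strand), Fcgr3 (chr1:171051169-171059403, minus strand) and Fcer1g (chr1:171229572-171234349, minus strand) fell within 274 kb of chromosome 1, in the mm10 coordinates of the deposited table. Fcgr1 lay on chromosome 3 (96282909 to 96293969), Lyn on chromosome 4 (3678121 to 3791612), Syk on chromosome 13 (52583437 to 52648792) and Btk on chromosome X (134542341 to 134583140). Fcgr2b, Fcgr3 and Fcgr4 are paralogs with similar extracellular parts. Reads that match more than 1 of them may have been split between them, so their counts carry that uncertainty.

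The promoters of the 4 receptors, whose genes are related and partly adjacent, are shown as a description. A link between these sequences and the LPS changes was not tested. Each run is the 250 bases before the RefSeq transcript start in GRCm38.p6, written 5′ to 3′ on the strand of the gene, with capitals marking matches to the STAT motif TTCNNNGAA, the interferon response motif GAAANNGAAA or the PU.1 motif GAGGAA, on either strand.
Fcgr1 (chr3:96293970-96294219, minus strand): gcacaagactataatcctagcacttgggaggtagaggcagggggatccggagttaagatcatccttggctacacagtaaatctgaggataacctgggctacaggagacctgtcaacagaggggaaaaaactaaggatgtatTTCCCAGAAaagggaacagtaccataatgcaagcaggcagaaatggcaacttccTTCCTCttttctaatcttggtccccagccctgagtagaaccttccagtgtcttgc
Fcgr4 (chr1:171018676-171018925, plus strand): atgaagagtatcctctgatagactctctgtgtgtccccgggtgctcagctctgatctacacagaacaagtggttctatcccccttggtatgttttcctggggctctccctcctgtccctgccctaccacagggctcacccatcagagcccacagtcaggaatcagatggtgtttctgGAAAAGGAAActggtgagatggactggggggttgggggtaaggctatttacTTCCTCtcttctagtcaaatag
Fcgr3 (chr1:171059404-171059653, minus strand): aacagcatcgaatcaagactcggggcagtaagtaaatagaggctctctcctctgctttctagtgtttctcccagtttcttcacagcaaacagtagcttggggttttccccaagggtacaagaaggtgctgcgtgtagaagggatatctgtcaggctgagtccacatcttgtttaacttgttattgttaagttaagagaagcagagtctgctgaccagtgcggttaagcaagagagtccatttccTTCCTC
Fcgr2b (chr1:170976072-170976321, minus strand): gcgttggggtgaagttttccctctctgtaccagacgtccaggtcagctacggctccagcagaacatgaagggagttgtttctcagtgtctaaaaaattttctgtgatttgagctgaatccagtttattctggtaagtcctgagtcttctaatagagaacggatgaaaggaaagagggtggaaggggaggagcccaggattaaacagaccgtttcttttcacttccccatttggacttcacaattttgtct

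The Fcgr1 window held TTCCCAGAA from position -109, counted from the transcript start, and this STAT pattern was in 7.02% of the 32851 RefSeq promoter windows of that length. The Fcgr4 window held GAAAAGGAAA from -73, a pattern in 2.98% of windows, and a match to a loose C/EBP pattern at -78 overlapped it. GAGGAA or its complement was in a window of Fcgr1, Fcgr3, Fcgr4 and Syk, and 23.3% of all windows held it. The Syk match overlapped a C/EBP match. Both lay in the window at chr13:52596632-52596881 and not in the other Syk window, at chr13:52583187-52583436. The 250 bases of Fcgr2b held none of these 3 patterns.

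A window was present for 7 of the 8 genes, 9 windows in all, and Lyn was not among them. Fcgr3 and Syk had more than 1 window, and a gene was counted when any of its windows matched. Counts of genes are therefore not on the same scale as the shares of windows. The other patterns searched were NF-kB GGGANNNNCC (4 of the 7 genes, Fcer1g, Fcgr2b, Fcgr3 and Fcgr4, against 17.6% of all windows), AP-1 TGANTCA (none, 6.75%), C/EBP TTNNGNAA (Fcgr3, Fcgr4 and Syk, 36.8%) and TATAAA (none, 12.4%). In Fcgr3 an NF-kB match and a C/EBP match overlapped. A match of letters is a description of the sequence and says nothing of binding in these samples.

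In the positive fraction of PBS animals, Fcgr3 and Fcer1g were the most abundant of the set and Fcgr4 the least. That fraction also held RNA of other brain cells, as described below, and their part in these levels was not tested. Per kilobase of transcript, the scale used to compare genes, the Positive PBS libraries held 6922 ± 499 normalised counts of Fcgr3 and 6558 ± 529 of Fcer1g (mean ± SD, n = 4), and these neighbours overlapped. Lyn followed at 1236 ± 147, Fcgr1 at 848 ± 50.1 and Fcgr2b at 586 ± 53.3, with no overlap between neighbours in that order. Syk at 353 ± 42.5 and Btk at 328 ± 27.0 overlapped, and Fcgr4 came last at 118 ± 16.1 per kilobase, below all the others.

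After LPS the order changed at 1 place above all. In the Positive LPS libraries Fcer1g came first at 16542 ± 2151 normalised counts per kilobase (n = 5) and Fcgr3 was next at 11916 ± 2656, overlapping it. Fcgr4 was now the third at 3105 ± 695, and overlapped Lyn at 2542 ± 393. Fcgr1 at 2078 ± 254 and Fcgr2b at 1354 ± 431 came next and overlapped each other, while Syk at 639 ± 126 and Btk at 469 ± 123 were the lowest. The plot of normalised counts by library shows the same values without division by length.

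**Figure D1:**
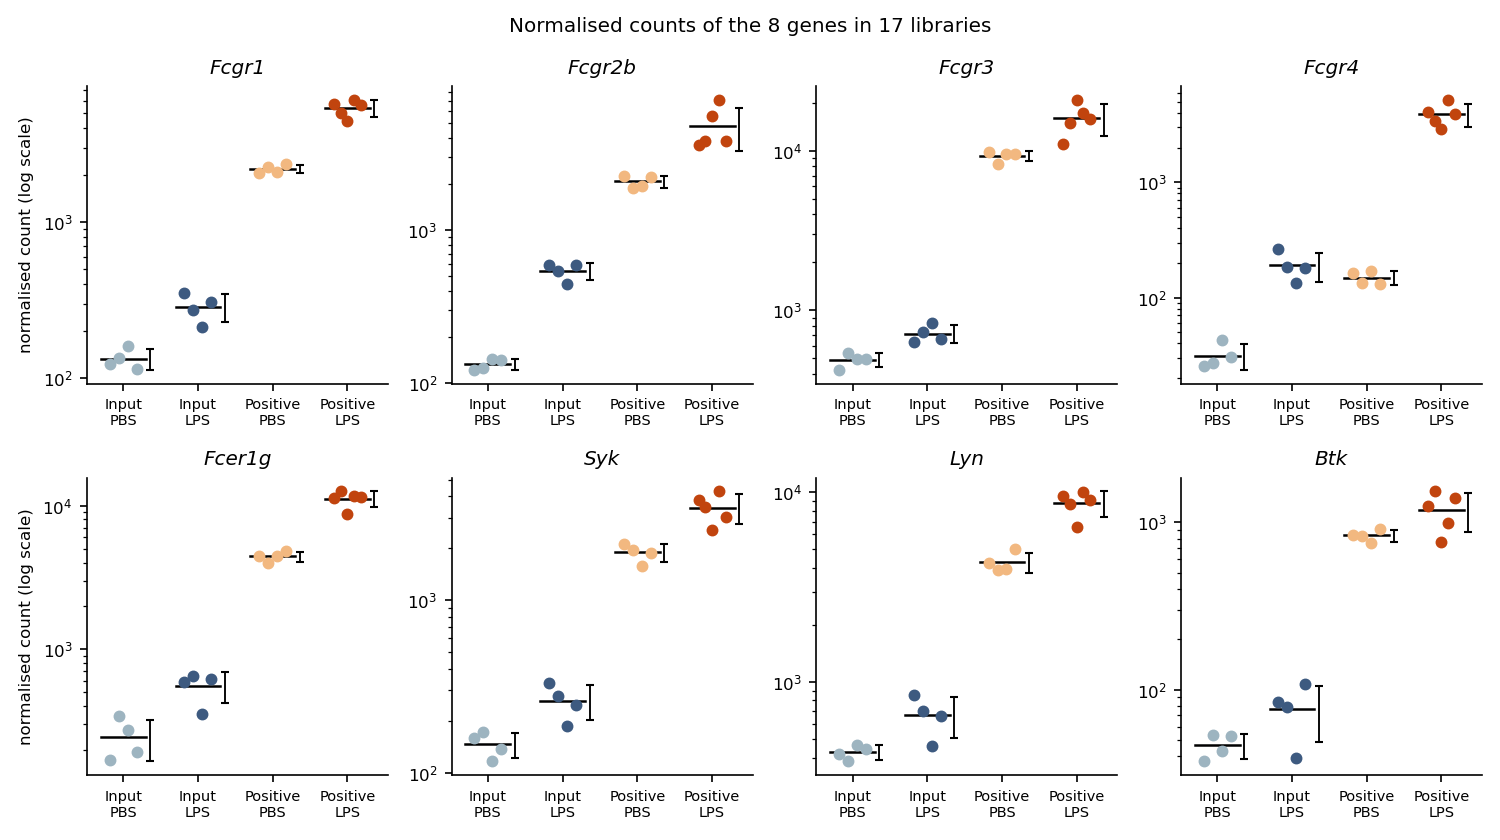
Normalised counts (y axis, log scale) of the 8 genes in the 17 libraries, by group of fraction and treatment (x axis). Points are libraries, horizontal lines are group means and the bars beside them are ± SD. Fcgr4 in Positive LPS lies between 2907 and 5223, against 130 to 170 in Positive PBS, and Btk is the only panel in which both the input and the positive groups overlap.

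After LPS, 7 of the 8 genes rose in the positive fraction, which is enriched for RNA of tagged cells. The background was 19.0% of the 14803 genes tested that were called higher and 14.9% that were called lower. A gene was called when edgeR's Benjamini-Hochberg adjusted p was under 0.05 with a log2 fold change beyond 0.32 in either direction, the size of change set in the methods. The median log2 change of the 8 was 1.12, beside 0.01 over all genes tested. Lack of overlap between groups, given below for single genes, was not counted over all genes tested and is a description. In a bulk fraction, more cells of a type and more RNA per cell cannot be told apart, and neither can fewer cells and less RNA per cell.

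Fcgr4, a low-affinity activating receptor for IgG, changed the most of the 8. Its normalised counts in Positive PBS were 162, 133, 170 and 130 in animals 268, 272, 273 and 506, and in Positive LPS they were 4102, 3385, 2907, 5223 and 3883 in animals 266, 267, 270, 271 and 507. The groups did not overlap, and the lowest LPS library was far above the highest PBS library. The fitted log2 change was 4.72 ± 0.21 (SE), 26.3-fold, with an adjusted p of 3.39e-11 by edgeR.

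Fcgr1, the high-affinity receptor for IgG, measured 2077, 2246, 2102 and 2353 in the PBS animals and 5702, 5024, 4433, 6119 and 5622 in the LPS animals, in the same order of animals. All LPS libraries lay above all PBS libraries and animal 270 was the lowest of them. The log2 change was 1.29 ± 0.12 (adjusted p = 2.72e-07 by edgeR).

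Fcgr3, the abundant low-affinity activating receptor, measured 9818, 8332, 9599 and 9549 normalised counts in Positive PBS and 11124, 15065, 21003, 17229 and 15832 in Positive LPS. The groups did not overlap, but the LPS animals spread widely, with animal 266 the lowest and animal 270 the highest. The log2 change of 0.78 ± 0.14 (adjusted p = 0.000171 by edgeR) was the smallest of the 4 receptors.

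Fcgr2b, the inhibitory receptor, measured 2244, 1881, 1952 and 2236 in Positive PBS and 3617, 3836, 5550, 7149 and 3835 in Positive LPS. Animals 270 and 271 were high, the other 3 LPS animals lay close together, and all 5 were above the PBS animals. Its log2 change was 1.21 ± 0.17 (adjusted p = 1.77e-05 by edgeR).

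The shared chain rose about as much as Fcgr1. Fcer1g, which couples the activating receptors to the kinases, went from 4460, 3966, 4419 and 4837 in Positive PBS to 11346, 12615, 8717, 11603 and 11464 in Positive LPS, with no overlap. Its log2 change was 1.33 ± 0.18 (adjusted p = 1.45e-05 by edgeR).

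Of the kinases, Lyn and Syk rose and Btk did not pass the threshold. Lyn, a Src family kinase that phosphorylates both ITAM and ITIM, measured 4234, 3911, 3963 and 5013 in Positive PBS and 9532, 8712, 6547, 10103 and 9122 in Positive LPS, a log2 change of 1.04 ± 0.15 (adjusted p = 2.14e-05 by edgeR). Syk, the kinase that docks on the phosphorylated ITAM, measured 2132, 1967, 1587 and 1883 against 3793, 3476, 2548, 4299 and 3029, a log2 change of 0.86 ± 0.16 (adjusted p = 0.000301 by edgeR). Neither kinase had overlapping groups, and animal 270 was the lowest LPS animal for both.

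Btk, a Tec family kinase best known from B cells, measured 843, 826, 750 and 917 in Positive PBS and 1259, 1539, 760, 996 and 1396 in Positive LPS. Animal 270 lay within the PBS range and the other 4 LPS animals lay above it. The log2 difference was 0.51 ± 0.21 (adjusted p = 0.0595 by edgeR), which missed the threshold. It passed when animals were treated as blocks (0.47, adjusted p = 0.0273 by limma), with DESeq2 (0.51, adjusted p = 0.0393), with all 18 libraries (0.575, adjusted p = 0.0459 by edgeR), with the compared libraries alone (0.49, 0.0483), without both libraries of animal 270 (0.64, adjusted p = 0.00136 by edgeR), and without Positive LPS 270 (0.64, 0.0139), Input LPS 270 (0.51, 0.0216) or Positive LPS 271 (0.575, 0.0485).

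**Figure D2:**
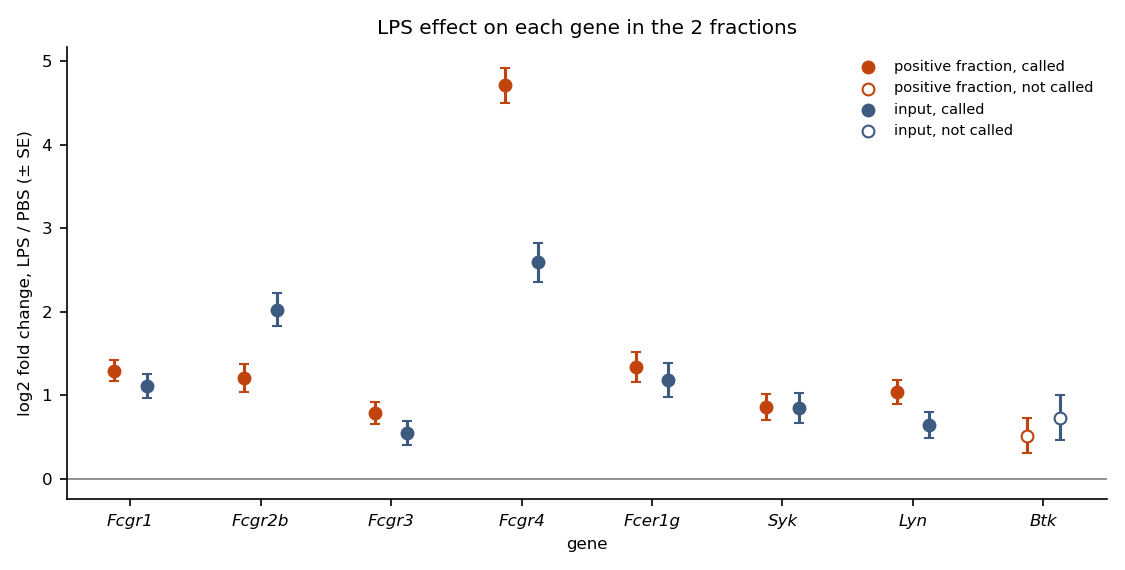
Fitted log2 fold change of LPS over PBS (y axis, ± SE) for each gene (x axis) in the positive fraction and in input, with filled points for called genes and open points for the others. Fcgr4 stands at 4.72 in the positive fraction and 2.59 in input. For Fcgr2b the input value, 2.03, lies above the positive value, 1.21, a difference that was not called. Btk too has an input value, 0.73, above its positive value, 0.51.

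In input, which holds RNA of all cells of the brain, the same 7 genes were called higher and Btk again was not, against a background of 7.16% of tested genes called higher and 5.26% called lower. The median log2 change of the 8 genes was 0.97, beside 0.00 over all genes tested. The 4 groups were compared in 1 model, so both LPS effects share the same estimate of spread.

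Fcgr4 in input measured 25.5, 26.8, 42.7 and 30.5 normalised counts in the PBS animals 268, 272, 273 and 506, and 264, 184, 134 and 179 in the LPS animals 266, 267, 270 and 507. The groups did not overlap and the log2 change was 2.59 ± 0.24 (6.03-fold, adjusted p = 6.50e-07 by edgeR). The Input LPS range overlapped that of Positive PBS, the only gene of the 8 for which these neighbours did.

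Fcgr2b in input measured 121, 126, 143 and 141 in the PBS animals and 592, 537, 443 and 593 in the LPS animals. All LPS animals lay above all PBS animals, and the log2 change was 2.03 ± 0.19 (4.07-fold, adjusted p = 1.10e-06 by edgeR).

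Fcgr1 in input went from a range of 114 to 161 to one of 213 to 349 (log2 change 1.10 ± 0.14, adjusted p = 3.45e-05 by edgeR). Fcer1g went from between 169 and 343 to between 356 and 650 (1.18 ± 0.20, adjusted p = 0.000452), and Syk from between 116 and 171 to between 187 and 333 (0.84 ± 0.18, adjusted p = 0.00400). The ranges of these 3 genes did not overlap, and the lowest LPS library was again that of animal 270 for each of them. For Fcer1g and Syk that library was close to the PBS range.

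The remaining input changes were smaller. Fcgr3 measured 423 to 544 in Input PBS and 633 to 837 in Input LPS (0.55 ± 0.15, adjusted p = 0.0167 by edgeR). It lost its call without Input PBS 268 (0.48, adjusted p = 0.0577), Input LPS 270 (0.47, 0.0648) or with animals 506 and 507 both omitted (0.59, 0.0786). Lyn measured 381 to 468 and 458 to 858, ranges that overlapped through animal 270, with a log2 change of 0.64 ± 0.16 (adjusted p = 0.00975) that was lost when animals 506 and 507 were omitted (0.67, adjusted p = 0.0565).

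Btk in input measured 37.1 to 53.5 in PBS animals and 38.8 to 107 in LPS animals, so the groups overlapped, again through animal 270. The log2 difference was 0.73 ± 0.27 (adjusted p = 0.0798 by edgeR). It passed with DESeq2 (adjusted p = 0.0306), without both libraries of animal 270 (0.95, adjusted p = 0.00169 by edgeR), without Input LPS 270 alone (0.95, 0.0103) and without Positive LPS 270 alone (0.73, 0.0481).

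The size of the LPS effect differed between fractions for Fcgr4. Its log2 change was larger in the positive fraction by 2.12 ± 0.32 (adjusted p = 0.00046 for the interaction, by edgeR). This was the only call among the 8 genes, with 6.88% of all tested genes called for this difference. For Fcgr2b the difference ran the other way, -0.82 ± 0.25 (adjusted p = 0.0565), and missed the threshold.

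With animals as blocks, 3 of the 8 genes were called, against 12.9% of all genes in that fit. Fcgr4 differed by 2.01 (adjusted p = 1.69e-05 by edgeR), Fcgr2b by -1.02 (adjusted p = 0.0041) and Lyn by 0.36 (adjusted p = 0.043). Without the block the Lyn difference was 0.40 ± 0.21 (adjusted p = 0.329). Fcgr2b also passed without Positive LPS 271 (-1.002, adjusted p = 0.00338), without Input LPS 270 (-0.91, 0.039), without Positive LPS 270 (-0.87, 0.0407) and without both libraries of animal 270 (-0.96, 0.0289). It passed too with DESeq2 (-0.82, adjusted p = 0.0194), limma-trend (-0.86, 0.0332), all 18 libraries (-0.81, 0.0361 by edgeR) and sex as a covariate (-0.83, 0.0474). The other 5 genes differed by between -0.22 and 0.24, with SE from 0.19 to 0.34, and were not called in either fit.

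All 8 genes were higher in the positive fraction than in input, in both treatments. In PBS animals the 8 calls compare with 21.0% of tested genes called higher, and in LPS animals with 27.6%. The median log2 difference of the 8 genes was 4.00 in PBS animals and 4.09 in LPS animals, beside -0.000883 and -0.03 over all genes tested, and beside 4.23 and 4.05 for the 7 microglia markers.

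In PBS animals the fitted differences, positive over input, ran from 2.24 ± 0.24 for Fcgr4 to 4.25 ± 0.16 for Fcgr3, with Lyn at 3.32, Syk at 3.70, Fcgr2b at 3.97, Fcgr1 at 4.04, Btk at 4.16 and Fcer1g at 4.18. In LPS animals Fcgr4 reached 4.36 ± 0.20 and Fcgr2b was the lowest at 3.15 ± 0.18. The other 6 genes lay between 3.71 (Syk) and 4.49 (Fcgr3).

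Within single animals, the log2 ratio of positive to input for Fcgr4 was 2.65, 2.28, 1.98 and 2.08 in PBS animals 268, 272, 273 and 506 and 3.96, 4.20, 4.44 and 4.43 in LPS animals 266, 267, 270 and 507. For Fcgr2b the ratio was 4.20, 3.90, 3.76 and 3.99 in the PBS animals and 2.61, 2.84, 3.64 and 2.69 in the LPS animals. Both genes had ranges that did not overlap between treatments, in opposite directions, and animal 270 was the LPS animal nearest to the PBS range for Fcgr2b. How often such ranges separate over all tested genes was not counted. Lyn ran from 3.08 to 3.49 in PBS animals and from 3.47 to 3.84 in LPS animals, so its ranges just met.

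**Figure D3:**
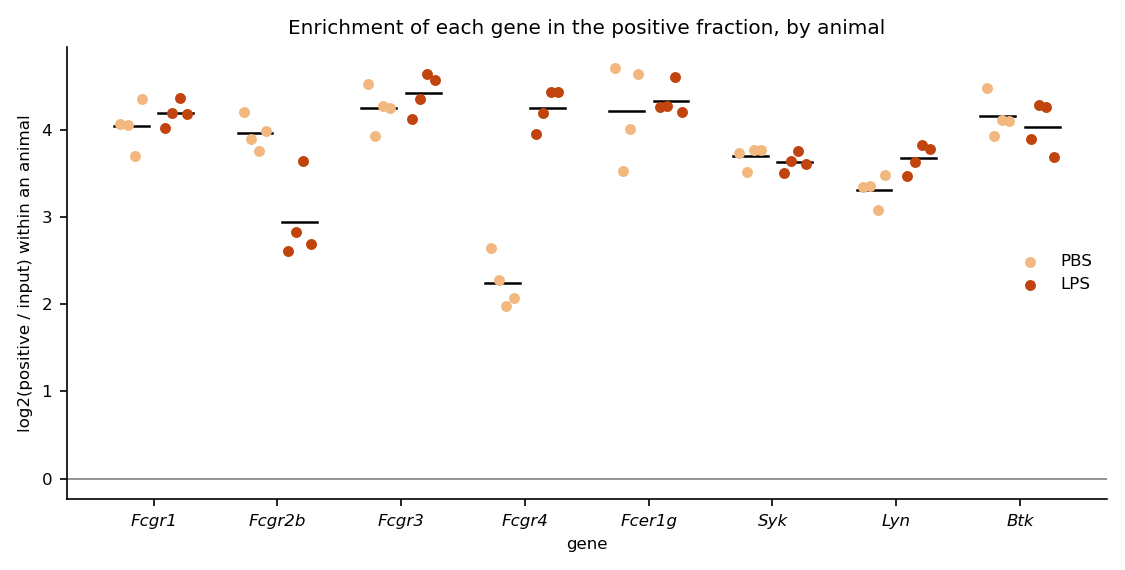
Log2 ratio of positive to input within each animal (y axis) for the 8 genes (x axis), PBS and LPS animals side by side. Points are animals with both libraries (n = 4 per treatment) and lines are means, and the mean of Fcgr4 goes from 2.25 in PBS to 4.26 in LPS animals while that of Fcgr2b goes from 3.96 to 2.95.

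Activating and inhibitory receptor transcripts were compared by the log2 ratio of each activating receptor to Fcgr2b within a library, where library scaling cancels. The counts in these ratios were not divided by transcript length (Fcgr2b 3544, Fcgr1 2589, Fcgr3 1347 and Fcgr4 1256 bases). A ratio near 1 therefore does not mean equal levels per kilobase, while length cancels in the change between treatments. Each library mixes RNA of many cells, above all in input. The ratios therefore do not give the balance within a cell, and receptor protein was not measured. The 6 ratios (3 receptors in 2 fractions) were compared between treatments by exact two-sided permutation tests, with Benjamini-Hochberg adjustment over the 6. The smallest p these designs allow is 0.0159 in the positive fraction and 0.0286 in input, before adjustment.

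Fcgr4 gained on Fcgr2b most in the positive fraction. Its ratio to Fcgr2b was between 0.0585 and 0.0872 in Positive PBS and was 1.13, 0.882, 0.524, 0.731 and 1.01 in animals 266, 267, 270, 271 and 507 of Positive LPS. The log2 ratio went from -3.81 ± 0.24 to -0.27 ± 0.44 (SD), a difference of 3.53 (exact permutation p = 0.0159, adjusted 0.0343). In input it went from -2.09 ± 0.24 to -1.54 ± 0.26, a difference of 0.55 (exact permutation p = 0.0286, adjusted 0.0343), and with a pseudocount of 5 in place of 0.5 the input difference was 0.42 (exact permutation, adjusted p = 0.103).

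Fcgr3 lost ground to Fcgr2b in both fractions. In the positive fraction its log2 ratio went from 2.17 ± 0.09 to 1.77 ± 0.32, a difference of -0.40 (exact permutation p = 0.0159, adjusted 0.0343). In input it fell from 1.88 ± 0.15 to 0.41 ± 0.37, a difference of -1.47 (exact permutation p = 0.0286, adjusted 0.0343). The linear ratio in input was 3.48, 4.31, 3.45 and 3.54 in the PBS animals and 1.07, 1.37, 1.89 and 1.11 in the LPS animals, with no overlap. Per kilobase of transcript, Input LPS held 532 ± 67.6 normalised counts of Fcgr3 and 153 ± 19.8 of Fcgr2b.

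For Fcgr1, the ratio to Fcgr2b was called in input alone. In the positive fraction the LPS libraries spread on both sides of the PBS libraries (log2 ratio 0.08 ± 0.15 in PBS and 0.21 ± 0.45 in LPS, exact permutation p = 0.603, adjusted 0.603). In input all 4 LPS libraries, between -1.05 and -0.76, lay below the PBS libraries, between -0.30 and 0.17 (difference -0.93, exact permutation p = 0.0286, adjusted 0.0343). Whether the change of this ratio differs between fractions was not tested.

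**Figure D4:**
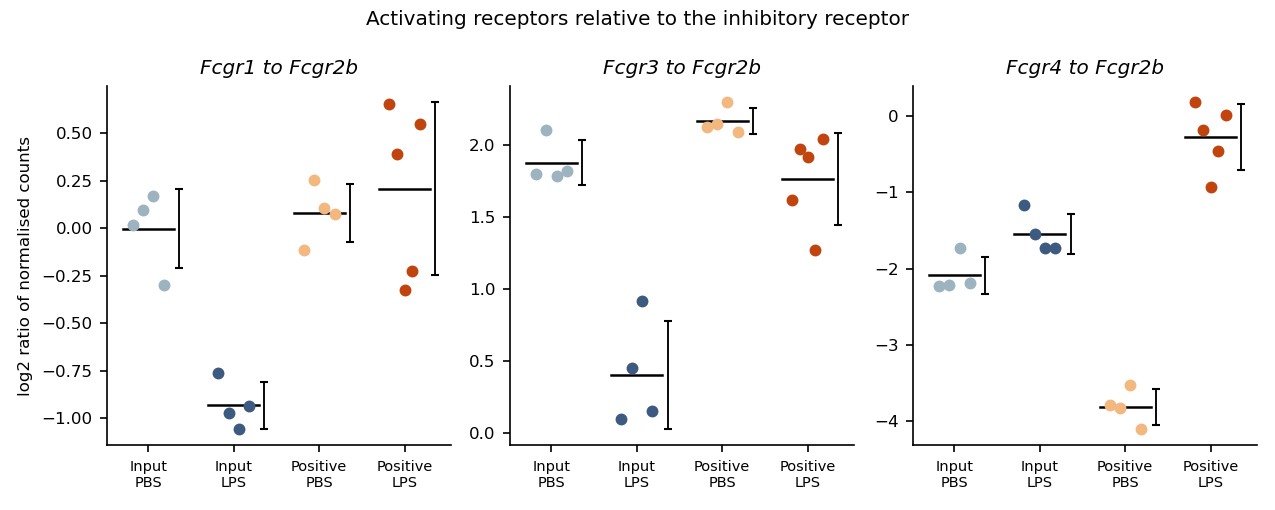
Log2 ratio of Fcgr1, Fcgr3 and Fcgr4 to Fcgr2b (y axis) in each library, by group (x axis), with lines for group means and bars for ± SD. The Fcgr4 ratio in Positive LPS lies between -0.93 and 0.18, above all Positive PBS libraries, and the Fcgr3 ratio in Input LPS, 0.10 to 0.92, lies below all Input PBS libraries.

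Markers of other cells that carry these receptors were measured beside them. The counts of called marker genes stand beside 19.0% of all tested genes called higher after LPS and 14.9% called lower in the positive fraction. In input these shares were 7.16% and 5.26%. Of 12 neutrophil genes, 7 were tested, and 6 of them rose in input and 5 in the positive fraction. Their summed level was 534 to 934 in Input PBS, 925 to 1857 in Input LPS, 258 to 536 in Positive PBS and 553 to 1245 in Positive LPS. Ly6g was listed at 0 in all 17 libraries and Elane in all but Input PBS, where it reached 10.0. The part of neutrophil RNA in the Fcgr4 result was not tested.

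Monocyte genes did not move together. Of 9, 6 were tested, 1 (Chil3) rose in both fractions and Ccr2, the chemokine receptor of inflammatory monocytes, fell in the positive fraction, where it was at 30.5 to 59.7 in PBS and 3.31 to 15.3 in LPS libraries. The summed level was 2385 to 3392 in Input PBS, 1678 to 2633 in Input LPS, 1558 to 2395 in Positive PBS and 1155 to 1921 in Positive LPS.

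Endothelial genes summed to higher levels in Input LPS, where Fcgr2b was also higher. The 6 genes (Cldn5, Ly6c1, Flt1, Cdh5, Slco1a4 and Esam) summed to 2069 to 3082 in Input PBS and 3348 to 4759 in Input LPS, with Cldn5 and Cdh5 called higher and Flt1 called lower. In the positive fraction the sums were 5254 to 8368 and 5408 to 8811. The part of endothelial RNA in the Fcgr2b result was not tested.

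B cells express Fcgr2b, Lyn, Syk and Btk, and their defining genes were at unequal levels. Ms4a1 was at most 3.33 in any of the 17 libraries, and Mzb1 was listed at 0 in all. Of the 7 genes only Cd79b and Tnfrsf17 passed the filter. Cd79b, a chain of the B cell receptor, rose in both fractions, from 87.4 to 143 in Positive PBS to 216 to 387 in Positive LPS (log2 change 1.35 ± 0.22) and from 4.47 to 9.50 in Input PBS to 9.03 to 20.4 in Input LPS (1.08 ± 0.35). Tnfrsf17, a receptor of plasma cells, fell in the positive fraction, from 47.8 to 86.1 in PBS libraries to 0 to 4.14 in LPS libraries. The sums were 40.6 to 46.0 in Input PBS, 36.7 to 49.9 in Input LPS, 169 to 224 in Positive PBS and 240 to 410 in Positive LPS. Their part in the receptor and kinase results was not tested. The 8 T and NK cell genes summed to between 10.4 and 44.7 in every library and none passed the filter.

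Mast cells and platelets also use Fcer1g. The 5 mast cell genes summed to 96.1 to 182 in Input PBS, 116 to 164 in Input LPS, 181 to 249 in Positive PBS and 123 to 193 in Positive LPS, with Cma1 at 0 in Input LPS. The 5 platelet genes summed to 82.7 to 146, 85.0 to 168, 225 to 293 and 135 to 256 in the same groups. In neither list were the LPS sums above the PBS sums without overlap.

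Border macrophage genes, which the tag can also mark, split. Of 8, Siglec1 rose in both fractions, and Mrc1, Lyve1, Pf4 and Cd209f fell in the positive fraction. Their sum was 794 to 1219 in Input PBS, 973 to 1594 in Input LPS, 9033 to 16087 in Positive PBS and 6890 to 14713 in Positive LPS. Their part in the receptor results was not tested. The 7 microglia genes summed to 6703 to 8548 in Input PBS, 6709 to 10114 in Input LPS, 130919 to 156174 in Positive PBS and 121920 to 167278 in Positive LPS, so the sums overlapped between treatments. The single genes did not all stay level. In the positive fraction 2 of the 7 were raised (Itgam 0.85 and C1qa 0.49) and 2 lowered (P2ry12 -2.47 and Tmem119 -0.86, log2 changes). Over all tested genes 19.0% were called higher there and 14.9% lower.

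The pulldown left RNA of other brain cells in the positive fraction. The 6 neuron genes summed to 169254 to 178151 in Input PBS, 152667 to 168800 in Input LPS, 174468 to 200265 in Positive PBS and 132287 to 183226 in Positive LPS. The 6 astrocyte genes summed to 69236 to 72166, 79640 to 95943, 56362 to 70639 and 67947 to 82966 in the same groups. The 6 oligodendrocyte genes summed to 97077 to 154077, 61538 to 91506, 22419 to 28975 and 19179 to 29241, and all 6 fell in input after LPS.

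The rest of the pathway was described from 5 lists of 86 genes, of which 74 passed the filter. In the positive fraction 34 of the 74 rose and 11 fell after LPS, beside 19.0% of all tested genes called higher and 14.9% called lower, so the share that fell was at the background. In input 23 rose and 6 fell, beside 7.16% and 5.26% of all tested genes. The plot of the lists shows the single genes.

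**Figure D5:**
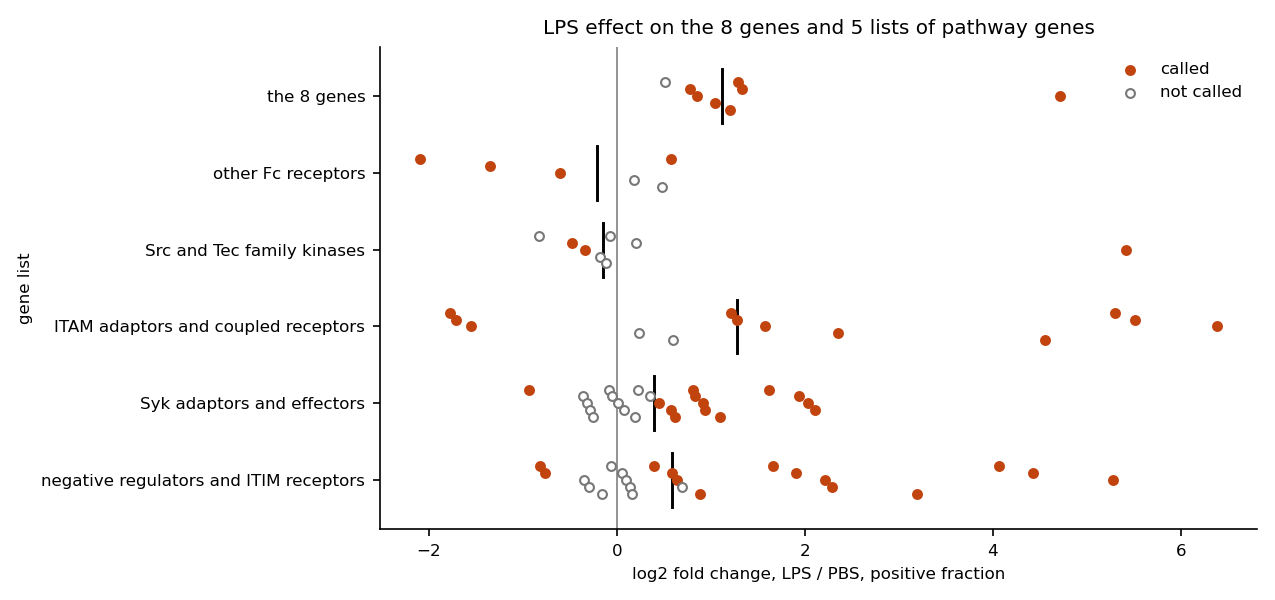
Fitted log2 fold change of LPS over PBS in the positive fraction (x axis) for the 8 genes and for the tested genes of 5 pathway lists (y axis). Points are genes, filled when called, and vertical lines are list medians, which run from -0.21 for other Fc receptors to 1.28 for ITAM adaptors and coupled receptors.

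Of 12 other Fc receptors, 6 passed the filter, and in the positive fraction 3 fell and 1 rose (median log2 change -0.21). With 19.0% of all tested genes called higher, 1 of 6 is near the background, and 6 genes are few to set beside it. Fcrls, an Fc receptor-like gene that marks resting microglia, fell from 13919 ± 1189 to 5483 ± 2283 normalised counts, a log2 change of -1.34 ± 0.23 (adjusted p = 0.00018 by edgeR). Fcrl1 fell from 162 ± 26.3 to 37.8 ± 19.2 (-2.10 ± 0.37), and Fcgrt, the neonatal receptor that recycles IgG, changed by -0.61 ± 0.15.

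Trim21, a cytosolic receptor that binds antibody inside the cell, was the gene that rose, by 0.58 ± 0.18. The chains that pair with Fcer1g in the IgE receptor were close to the floor of 3 counts. Ms4a2, its beta chain, was listed at 0 in all 17 libraries, and Fcer1a, its alpha chain, was at most 5.18.

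Among Src and Tec family kinases other than Lyn and Btk, 1 of 8 tested genes rose and 2 fell (median -0.15), counts near the 19.0% and 14.9% of all tested genes. Fgr, a Src family kinase of myeloid cells, went from 48.8 ± 11.6 to 2082 ± 424 normalised counts in the positive fraction (5.41 ± 0.25, adjusted p = 5.52e-11 by edgeR). Src and Yes1, which are expressed broadly, fell by 0.34 and 0.47 on the log2 scale.

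Genes of ITAM adaptors and of receptors that couple to them moved in both directions. Of 13 tested, 8 rose and 3 fell in the positive fraction (median 1.28). Trem1, Trem3, Clec4d, Clec4e and Pira2 passed the filter through LPS libraries alone, with Positive PBS means from 2.11 (Trem3) to 11.6 (Pira2). A rise was thus nearly given for these genes, which count in both the rises and the median. Trem1, an activating receptor of myeloid cells, went from 5.96 ± 2.31 to 508 ± 273 normalised counts (6.38 ± 0.46). Clec4d and Clec4e, a pair of C-type lectins that signal through Fcer1g, rose by 5.52 ± 0.35 and 5.30 ± 0.46.

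The 3 genes of this list that fell were Siglech, Trem2 and Clec7a. Siglech, a sialic acid-binding lectin of microglia, went from 7859 ± 312 to 2304 ± 1261 (-1.77 ± 0.28), and Trem2, a lipid-sensing receptor, from 7480 ± 663 to 2277 ± 811 (-1.71 ± 0.24). Clec7a, the beta-glucan receptor, changed by -1.55 ± 0.37. Siglech and Trem2 signal through Tyrobp, the other ITAM adaptor of these cells, which itself differed by 0.23 ± 0.10 and was not called.

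Adaptors and effectors below Syk mostly rose or were not called. Of 24 tested, 12 rose and 1 fell in the positive fraction (median 0.40). The genes with the highest change were Rac2, a small GTPase of the phagocyte oxidase (2.11 ± 0.24), Pik3ap1, an adaptor for PI3-kinase (2.03 ± 0.19), and Lcp2, the adaptor SLP-76 (1.94 ± 0.21). Rasgrp3, an exchange factor for Ras, was the gene that fell (-0.93 ± 0.18).

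Of the negative regulators, 23 were tested, and 12 rose and 2 fell in the positive fraction (median 0.58). Cd72, an ITIM receptor, went from 103 ± 1.14 to 4025 ± 1601 normalised counts (5.28 ± 0.38), and Lilrb4 and Gp49a, 2 neighbouring genes so alike that reads could be shared between them, rose by 4.42 ± 0.15 and 4.06 ± 0.33. Cd300a and Sirpa, ITIM receptors too, fell by 0.82 and 0.77 on the log2 scale.

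In input the counts were 1 raised and 2 lowered of 6 other Fc receptors, 1 and 0 of 8 kinases, 4 and 2 of 13 ITAM genes, 8 and 1 of 24 Syk effectors, and 9 and 1 of 23 negative regulators, beside 7.16% of all tested genes called higher and 5.26% called lower. The falls in the last 2 lists, and the counts of 1 or 0 among the kinases, were near those shares. The input and positive libraries come from the same animals, and these counts do not test a difference between fractions.

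For each of the 8 genes, the genes outside the set with the most similar pattern over the 9 positive libraries were found by Pearson's correlation of log2(normalised count + 1) among 12527 genes. The points are 2 treatment groups, so a high r mostly reflects the LPS difference, and the values are a description. Fcgr4 was closest to Smpdl3b, Plin2 and Irf7, and Fcgr1 to Bcl2a1a, C3ar1 and Samsn1, with r of 0.997 for all 6. Fcer1g was closest to Slc39a1 (0.998), Cst7 and Dera (both 0.997).

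The other 5 genes had different neighbours. Fcgr2b was nearest to Klf6 (0.995), Maml1 (0.992) and Ddx39b (0.991), and Fcgr3 to 1600029D21Rik (0.991), Bnip3l (0.986) and Slc9a3r1 (0.981). Syk was nearest to Pik3cg (0.991), Ripk1 (0.985) and Traf1 (0.981). Lyn was nearest to Sf3b3, Vav1 and Alas1 (0.992 for each), and Btk to Erp44 (0.982), Ralb (0.973) and Emr1 (0.971).

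Among the 8 genes themselves, Fcgr1, Fcgr4, Fcer1g and Lyn followed each other closely over the 9 positive libraries, with r between 0.954 and 0.987. Fcgr2b and Fcgr3 were nearest to each other (0.919), both high in animals 270 and 271. Btk had the lowest values, 0.295 with Fcgr3 and 0.338 with Fcgr2b.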

How the data were processed

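RNAseq was available for 18 libraries from 9 mice, grouped by the fraction and treatment in their labels. Per the labels and methods, the authors used a directional kit, aligned reads by strand to mm10 in Strand NGS and deposited estimated counts per gene; 81.6% of nonzero values were not whole (tolerance 1e-06). They also deposited log2 values, normalised with DESeq by the authors, which were not used in tests here. How reads shared by paralogs were counted is not given in the sources used here.

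The nearly empty input library of animal 271 was left out. Estimated counts were rounded, scaled by median-of-ratios size factors (0.766 to 1.32, over 15766 genes), filtered (14803 genes had more than 20 normalised counts throughout 1 group or more), and fitted with edgeR 4.0.16 (quasi-likelihood, R 4.3.3), each group having its own mean, which left 13 residual degrees of freedom. Printed levels are unrounded counts over size factors. Adjusted p-values are edgeR's over all genes tested, unless another tool is named. The quasi-likelihood model replaces the analysis of variance of the methods because the values are counts. Ratio tests used a pseudocount of 0.5 in scipy 1.17.1. The fit was tested on simulated data.

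The animal number pairs libraries by label, and the 2 fractions of an animal deviated together from their group means (correlations 0.142 to 0.506 over 8 animals). Blocks were fixed animal effects in edgeR for comparisons within animals, and limma 3.58.1 with an estimated correlation for LPS effects. Also tried were TMM scaling, DESeq2 1.42.0, limma-trend, no filter, all 18 libraries, omission of animals 506 and 507, the compared libraries alone, sex as a covariate, leaving out each library and, added after seeing the data, leaving out animal 270. The counts give a floor of 3 counts, between 8.54e-06% and 1.31e-05% of a library, for counting error alone, as the reads carried no molecular identifiers and are not independent molecules. Each library came from its own animal within a group.

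The 8 genes, the 5 pathway lists, the 12 marker lists and the motifs were chosen with earlier results of these data known. Some genes of these lists are not reported here and were left out of the counts and sums. Named pathway genes are up to 3 called genes with the highest and up to 3 with the lowest LPS change per list in the positive fraction, averaging 50 or more normalised counts over the positive libraries; list genes outside that rule (Fcer1a, Ms4a2, Tyrobp) were named after their values were seen. Genes with similar patterns averaged 100 or more. Transcript lengths are those of the longest GENCODE M21 transcript linked to a curated RefSeq mRNA, and promoter sequences are from RefSeq on GRCm38.p6.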

Additional observations from a re-analysis of the deposited data

Results flagged for a closer look

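The LPS effect on Fcgr4 differed between fractions by 2.12 on the log2 scale (adjusted p = 0.00046 for the interaction, edgeR), larger in the positive fraction.

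A search for single libraries far from the rest of their group, by Dixon's criterion at 95%, covered 44 sets of 4 or 5 libraries (8 genes and 3 ratios in 4 groups) and found 2, where chance alone gives about 1 in 20. The log2 ratio of Fcgr3 to Fcgr2b in Input PBS 272 was 2.11, above the other 3 Input PBS libraries. The log2 ratio of Fcgr4 to Fcgr2b in Input PBS 273 was -1.73, also above the others.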

How the results depend on the processing

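Over the 5 comparisons and all alternatives, the log2 differences of the 8 genes kept direction and side of the threshold in 1035 of 1072 cases. This total includes all cases of positive against input, whose differences were far from the threshold and never changed side. Btk in the positive fraction changed side in 8 cases, and the Fcgr2b difference between fractions in 9. The count of the 8 genes called stayed within 1.5 times its value in each of 4 comparisons. For the difference between fractions it was 1, and became 2 with DESeq2, with limma, with all 18 libraries, with sex as a covariate and without animal 270, and 3 with the replicate block; leaving out each library gave 1 to 2. Over all genes, the count called for LPS in input moved from 1839 to 1083 without animals 506 and 507, and the count for the difference from 1018 to 323 without them and to 1915 with the replicate block. The block changed no call of the 8 genes other than those given for Btk, Fcgr2b and Lyn. The causes were not tested.

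The differences near 0 changed sign. For Syk the difference between fractions, 0.01, was -0.074 with the replicate block, -0.028 without animal 270, and -0.02, -0.033, -0.121, -0.076, -0.068, -0.061 and -0.014 without Positive LPS 266, Input PBS 268, Input LPS 270, Positive LPS 271, Input PBS 272, Positive PBS 273 and Input LPS 507. For Fcer1g, 0.15 became -0.015 without Input LPS 270 and -0.053 without Input PBS 272, and reached 0.293 without Input PBS 268, the highest value with 1 library left out, and 0.342 without animals 506 and 507.

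All 6 ratio differences kept their direction. Without animals 506 and 507, or with females alone, no adjusted p can pass, since too few libraries remain: the values were -1.02 and -0.78 for Fcgr1 in input, -0.50 and -0.40 for Fcgr3 in the positive fraction, -1.41 and -1.42 for Fcgr3 in input, 3.36 and 3.64 for Fcgr4 in the positive fraction, and 0.58 and 0.67 for Fcgr4 in input, in that order. With a pseudocount of 5 Fcgr4 in input was 0.42. Leaving out each input library gave -1.03 to -0.87 for Fcgr1, -1.65 to -1.37 for Fcgr3 and 0.42 to 0.67 for Fcgr4, where again no p could pass.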
